A study of Mus musculus with 16 samples.

Results

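The genes described here are 33 genes of glycolysis and of the cellular response to low oxygen, measured in sorted mouse bone marrow cells on 16 Affymetrix expression arrays. They comprise glucose and lactate transporters, glycolytic enzymes, pyruvate dehydrogenase kinases and hypoxia regulators. Members were found by gene symbol in the platform annotation, and each gene was represented by the probe set with the highest mean log2(intensity + 16) over the 16 arrays. Of the 33 genes, 31 had a probe set assigned to them alone, out of 18194 genes of the array with such a probe set. Gpi1 and Eno1 had no such probe set in the annotation used here and have no value. The 31 genes had 70 probe sets between them, and 20 genes had more than 1.

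The arrays fall into 6 groups, all labelled C57Bl6, female and bone marrow. Hematopoietic stem cells (HSC) were sorted from wild-type mice aged 9 to 12 weeks (young, 3 arrays) and 24 months (old, 3 arrays). They were also sorted from mice aged 32 weeks of genotype Polgtm1Lrsn+/+ (mid-aged wild type, 3 arrays) and Polgtm1Lrsn-/- (mutator, 3 arrays). The Polgtm1Lrsn allele encodes a mitochondrial DNA polymerase without proofreading, so that mutations accumulate in mitochondrial DNA; it is present in every cell from conception and is not limited to blood. Common lymphoid progenitors (CLP) came from wild-type mice aged 8 to 12 weeks, 2 arrays of Ly6D- and 2 of Ly6D+ cells; Ly6D marks the CLP already turned towards the B lineage. Replicates are labelled biological, and each array was made from 4000 to 7000 cells. Whether mice were pooled is not stated in the labels, so p-values measure the spread between these samples. That spread was estimated for each gene over all groups in a fit, not over the compared groups only, unless these were fitted alone. The point mutation cannot be checked on an expression array.

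Glycolysis breaks glucose down to pyruvate in the cytosol, and lactate dehydrogenase interconverts pyruvate and lactate. Pyruvate dehydrogenase kinases phosphorylate and inhibit the mitochondrial enzyme that passes pyruvate on to the citric acid cycle. In low oxygen the transcription factor subunits HIF-1 alpha (Hif1a) and HIF-2 alpha (Epas1) escape hydroxylation by the prolyl hydroxylases (Egln1, Egln3) and degradation through the von Hippel-Lindau protein (Vhl), pair with Arnt, and bind short DNA elements beside genes of glycolysis, angiogenesis and pyruvate handling. HSC are known for a metabolism that leans on glycolysis, and HIF-1 alpha and pyruvate dehydrogenase kinases are known to take part in keeping them quiescent.

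Hk1, Hk2, Aldoc, Pgk1, Ldhb, Slc2a3 and Epas1 were lower and Egln1 was higher in CLP than in both HSC groups compared with CLP. The upstream sequence is shown for 4 of these members as examples, Ldhb, Hk2, Pgk1 and Egln1. Each is the 250 bases before the annotated start, 5′ to 3′ on the gene's strand, from RefSeq on build GRCm38.p6. Capitals mark the core of the hypoxia response element, searched as ACGTG or GCGTG on both strands, so that CACGT and CACGC are the reverse complements; the first overlaps the E-box CACGTG.
Ldhb (chr6:142507958-142508207, minus strand): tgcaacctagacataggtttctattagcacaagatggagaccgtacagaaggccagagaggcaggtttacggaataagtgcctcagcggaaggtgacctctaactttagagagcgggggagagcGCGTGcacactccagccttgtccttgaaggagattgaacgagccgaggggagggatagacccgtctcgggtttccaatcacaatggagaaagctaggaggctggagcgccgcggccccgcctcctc
Hk2 (chr6:82774455-82774704, minus strand): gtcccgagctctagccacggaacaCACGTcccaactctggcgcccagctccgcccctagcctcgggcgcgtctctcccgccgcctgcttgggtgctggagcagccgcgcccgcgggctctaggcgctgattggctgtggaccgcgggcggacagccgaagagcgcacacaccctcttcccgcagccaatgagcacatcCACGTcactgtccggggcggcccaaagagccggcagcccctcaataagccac
Pgk1 (chrX:106186850-106187099, plus strand): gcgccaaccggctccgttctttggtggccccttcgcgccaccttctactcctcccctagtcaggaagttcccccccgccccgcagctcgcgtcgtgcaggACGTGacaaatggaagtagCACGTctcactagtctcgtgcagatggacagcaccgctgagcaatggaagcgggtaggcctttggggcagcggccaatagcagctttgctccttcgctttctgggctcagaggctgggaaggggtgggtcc
Egln1 (chr8:124949255-124949504, minus strand): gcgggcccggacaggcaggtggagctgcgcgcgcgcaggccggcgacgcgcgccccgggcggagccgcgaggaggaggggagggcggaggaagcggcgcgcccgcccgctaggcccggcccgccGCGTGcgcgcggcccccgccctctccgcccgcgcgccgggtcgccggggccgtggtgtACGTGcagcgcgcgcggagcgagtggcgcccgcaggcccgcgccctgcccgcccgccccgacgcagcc
Windows of 300 bases (250 before and 50 after the start) were available for 29 of the 31 genes, 42 windows in all. The ACGTG core was present in 22 of the 42 windows (52.4%), against 19.6% of all 32851 promoter windows. With either core the shares were 76.2% and 43.8%. The members' windows also had a higher median GC content, 61.7% against 52.7%. Ldhb and Egln1, which moved in opposite directions in CLP, both carry a core; a match is a description of the letters and not evidence of binding. Slc2a3 and Epas1 had no entry in this table.

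The arrays also differed in other respects. On all 4 CLP arrays and on mid-aged wild-type replicate 3, the X-inactivation transcript Xist lay at 9.12 to 16.8 and the Y-linked gene Eif2s3y at 423 to 758, whereas the other 11 arrays had Xist at 3507 to 11022 and Eif2s3y at 6.85 to 12.7, although all are labelled female. The log2 ratio of the 3′ to the 5′ control probe set of actin, which rises when cRNA is short or RNA degraded, was 2.20 to 2.27 on old, 2.39 to 2.61 on young, 4.24 to 5.26 on mid-aged wild-type and 4.74 to 5.25 on mutator HSC arrays. It was 2.11 to 2.52 on Ly6D- and 2.51 to 3.85 on Ly6D+ CLP arrays. The median SD of a member within a group on the log2 scale was 0.12 for young and 0.13 for old HSC, but 0.47 for mid-aged wild-type and 0.25 for mutator HSC. The mean log2 level of 9 HSC markers was 9.99 to 11.1 on HSC arrays and 7.11 to 8.06 on CLP arrays, and that of 8 CLP markers 5.02 to 5.46 and 8.33 to 10.6, as the labels say.

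**Figure D1:**
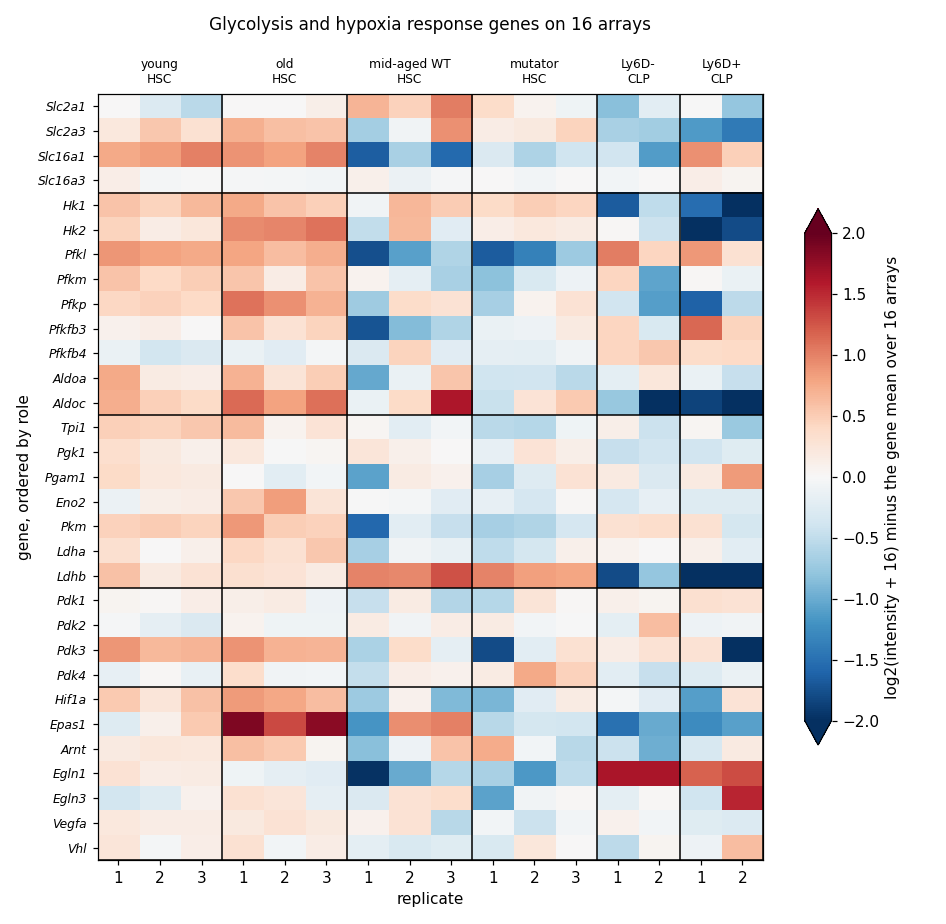
Each row is 1 of the 31 genes, ordered by role, and each column 1 of the 16 arrays. Colour gives log2(intensity + 16) minus the gene's mean over all arrays, red higher and blue lower. Ldhb, Hk1, Aldoc and Slc2a3 are blue and Egln1 is red on the CLP arrays. Hk2 is bluest on the Ly6D+ arrays, with Ly6D- replicate 1 near its mean. Epas1 and Hk2 are redder on old than on young arrays.

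Hk1, Hk2, Aldoc, Pgk1, Ldhb, Slc2a3, Epas1 and Egln1 passed the threshold between CLP and both HSC groups compared with CLP, each in the same direction. No member passed it between old and young HSC or between mutator and mid-aged wild-type HSC in the fit of all 12 HSC arrays. Below, higher, lower, rose and fell are used of an adjusted p under 0.05 in limma, with Benjamini-Hochberg adjustment over all genes tested, and changes are on the scale log2(intensity + 16). Of the 30 members tested, 10 were lower and 2 higher in CLP (4 arrays) than in young HSC; over all genes tested, 18.2% were lower and 12.5% higher. The median change of the members was -0.41, against 0.01 for all genes tested. Against mid-aged wild-type HSC, 8 members were lower and 5 higher in CLP, with 12.2% of all genes lower and 15.8% higher, and the median change was -0.04 against 0.03. These 2 comparisons share the CLP arrays, and others below share the young or the mid-aged wild-type arrays. Between Ly6D+ and Ly6D- CLP, 1 member was higher and 2 were lower, with 1.49% of all genes higher and 1.19% lower. Mid-aged wild-type HSC had 8 members lower and 2 higher than young HSC, with 17.7% and 6.42% of all genes, a median member change of -0.34 and -0.04 for all genes. In old against young HSC 0 of 30 members passed the threshold (3 at an unadjusted p under 0.05), with 1.31% of all genes called, and in mutator against mid-aged wild-type HSC 0 of 30 (4 at an unadjusted p under 0.05), with 0.0% of all genes called. The CLP arrays share the Xist and Eif2s3y pattern above, so cell type and that pattern cannot be told apart in CLP against young HSC. Mid-aged wild-type replicate 3, the HSC array with the same pattern, is pointed out below for Slc2a3, Hk1, Hk2, Ldhb, Pgk1 and Egln1. A lower intensity in a sorted population can stem from fewer cells with the transcript or from less transcript per cell, which arrays do not separate.

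Among the transporters, Slc2a3, a high-affinity glucose transporter, was lower in CLP. Its intensity was 1869, 2339 and 1996 in young HSC, and 2656, 2451 and 2405 in old HSC. Mid-aged wild-type HSC had 1001, 1529 and 3057, and mutator HSC 1786, 1844 and 2196. It was 1024 and 986 in Ly6D- CLP and 727 and 598 in Ly6D+ CLP. The CLP arrays lay below every young, old and mutator array, while mid-aged wild-type replicate 1 reached into the CLP range and replicate 3 was the highest of all arrays. The change from young HSC to CLP was -1.32 ± 0.27 (SE; adjusted p = 0.0025) and that from mid-aged wild-type HSC was -1.03 ± 0.27 (adjusted p = 0.013); in a fit of CLP and mid-aged wild-type arrays alone the latter had an adjusted p of 0.13. The second probe set of Slc2a3 with signal gave -1.26 ± 0.23 against young HSC. Without mid-aged wild-type replicate 3, which has the Xist pattern of the CLP arrays, mid-aged wild type minus young HSC was -0.73 (adjusted p = 0.029 in limma).

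Slc16a1, a monocarboxylate transporter that moves lactate and pyruvate across the cell membrane, differed between HSC groups and between CLP groups. Its intensity was 765, 800 and 905 in young HSC and 841, 787 and 901 in old HSC. Mid-aged wild-type HSC had 131, 276 and 140, and mutator HSC 361, 282 and 331. Both groups of 32-week mice thus lay below all young and old arrays. It was 336 and 195 in Ly6D- CLP and 846 and 622 in Ly6D+ CLP. One Ly6D+ array lay within the range of young and old HSC and the other below it, and the Ly6D- arrays lay with the mutator and mid-aged arrays. Mid-aged wild-type HSC were lower than young HSC by -2.15 ± 0.23 (adjusted p = 0.00026). Ly6D+ CLP were higher than Ly6D- CLP by 1.44 ± 0.31 (adjusted p = 0.027), which became 0.18 without Ly6D- replicate 2 and 0.11 without Ly6D+ replicate 1, and was also above 0.05 under 3 of 9 other alternatives. Ly6D- replicate 2 stood apart in the mean log2 level of 10 neutrophil genes, 8.49 against 5.80 to 5.96 on the other 3 CLP arrays, with the neutrophil gene S100a8 at 1371 against 16.1 to 75.6; its part in the CLP results was not tested. Without this array 11 members were called in CLP against young, 13 in CLP against mid-aged wild-type HSC and 1, Hk2, between the CLP groups, in place of 12, 13 and 3. CLP as a whole were lower than young HSC by -0.90 ± 0.24 (adjusted p = 0.012; 0.053 without young replicate 3) and higher than mid-aged wild-type HSC by 1.25 ± 0.24 (adjusted p = 0.0016; 0.054 in the fit of these groups alone).

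Slc2a1, the basal glucose transporter, had an intensity of 382, 313 and 256 in young, 384, 385 and 415 in old, 616, 528 and 788 in mid-aged wild-type and 495, 398 and 358 in the mutator HSC. In Ly6D- CLP it was 205 and 325 and in Ly6D+ CLP 377 and 217. The mid-aged wild-type arrays were the highest, and the CLP arrays overlapped the young ones. The change from young to mid-aged wild-type HSC was 0.99 ± 0.19 (adjusted p = 0.0042) and that from mid-aged wild-type HSC to CLP -1.18 ± 0.22 (adjusted p = 0.0015; -0.41 for the probe set with the smallest change), while CLP against young HSC gave -0.19 (95% interval -0.67 to 0.29). The other probe sets of Slc2a1 gave 0.69 and -0.09 for mid-aged wild type against young. The lactate exporter Slc16a3 lay at 11.4 to 16.4 on all arrays, at background, and was not tested.

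Hk1 and Hk2, hexokinases that trap glucose in the cell by phosphorylation, were lower in CLP. Hk1 had an intensity of 1221, 1116 and 1277 in young, 1391, 1221 and 1134 in old, 778, 1290 and 1167 in mid-aged wild-type and 1067, 1145 and 1098 in the mutator HSC. It was 247 and 564 in Ly6D- CLP and 271 and 166 in Ly6D+ CLP. No CLP array reached any HSC array, and mid-aged wild-type replicate 3, with the Xist pattern of the CLP arrays, lay at 1167. The change was -2.03 ± 0.25 against young HSC (4.08-fold lower; adjusted p = 5.5e-05) and -1.84 ± 0.25 against mid-aged wild-type HSC (adjusted p = 0.00013), and both calls held in every fit that left out 1 array. The dimmer second probe set gave -2.55 against young but only -0.63 against mid-aged wild-type HSC. On the probe set used the 4 HSC groups overlapped, with 0.05 (95% interval -0.35 to 0.45) for old against young HSC and 0.06 (-0.33 to 0.46) for mutator against mid-aged wild-type HSC. With the mean of both probe sets Hk1 was lower in mid-aged wild-type than in young HSC (-1.05, adjusted p = 0.010), against -0.19 on the probe set used (adjusted p = 0.50).

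Hk2, the hexokinase isoform known as a target of HIF, separated the groups further. It had an intensity of 433, 347 and 370 in young, 615, 629 and 681 in old, 217, 496 and 265 in mid-aged wild-type and 343, 365 and 351 in the mutator HSC. It was 319 and 228 in Ly6D- CLP and 61.5 and 79.0 in Ly6D+ CLP. The old arrays lay above all others and the Ly6D+ arrays below all others, while the Ly6D- arrays reached the mid-aged range. Mid-aged wild-type replicate 3, with the Xist pattern of the CLP arrays, lay at 265, within the range of the Ly6D- arrays. Ly6D+ CLP were lower than Ly6D- CLP by -1.73 ± 0.29 (adjusted p = 0.0067), a call that held without each CLP array in turn but had an adjusted p of 0.39 in a fit of these 4 arrays alone. CLP together were lower than young HSC by -1.34 ± 0.22 (adjusted p = 0.00055) and lower than mid-aged wild-type HSC by -1.04 ± 0.22 (adjusted p = 0.0035; 0.078 in a fit of these groups alone). The change from young to old HSC was 0.72 ± 0.24 with an adjusted p of 0.25 in the fit of 12 HSC arrays and 0.0085 in a fit of the 6 young and old arrays alone.

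The phosphofructokinases set the committed step of glycolysis. Pfkp, the platelet-type subunit, had an intensity of 434, 450 and 429 in young HSC, 704, 621 and 530 in old HSC, 242 and 141 in Ly6D- CLP and 94.0 and 220 in Ly6D+ CLP. All CLP arrays lay below all young and old arrays, and the change against young HSC was -1.33 ± 0.33 (adjusted p = 0.0073). With the mean of its probe sets, of which the others are dim, the change was -0.24 (adjusted p = 0.31). Pfkp overlapped between mutator (198, 340 and 397) and mid-aged wild-type HSC (191, 421 and 398).

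Pfkl, the liver-type subunit, was 930, 876 and 850 in young and 875, 775 and 829 in old HSC but 136, 226 and 323 in mid-aged wild-type and 146, 184 and 293 in the mutator HSC. In CLP it was 1030 and 676 (Ly6D-) and 916 and 616 (Ly6D+). The mid-aged and mutator arrays thus lay below all others, and CLP overlapped young HSC. Mid-aged wild-type HSC were lower than young HSC by -1.96 ± 0.28 (adjusted p = 0.001), and CLP were higher than mid-aged wild-type HSC by 1.80 ± 0.27 (adjusted p = 0.00031). The direction of both depended on the probe set: the other 2 gave -2.04 and 0.67 for mid-aged wild type minus young, and 1.35 and -0.29 for CLP minus mid-aged wild type, the last of each from the dimmest. CLP against young HSC gave -0.16 (95% interval -0.75 to 0.44). Pfkm, the muscle-type subunit, was lower in mid-aged wild-type than in young HSC (-0.74 ± 0.23, adjusted p = 0.035), a call lost without any 1 young array (adjusted p = 0.075 to 0.10) or without mid-aged wild-type replicate 3 (0.12). It was also lost under quantile normalization (adjusted p = 0.22) and in the fit of these groups alone (0.061).

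The bifunctional enzymes that make and remove fructose 2,6-bisphosphate, an activator of phosphofructokinase, passed the threshold in different comparisons. Pfkfb3 lay at 115, 119 and 108 in young, 166, 134 and 151 in old, 21.0, 51.1 and 65.1 in mid-aged wild-type and 95.7, 98.3 and 124 in the mutator HSC, and at 149, 83.6, 256 and 151 in CLP. The mid-aged wild-type arrays lay below every other array. They were lower than young HSC by -1.15 ± 0.24 (adjusted p = 0.0065) and lower than CLP, with CLP minus mid-aged wild type at 1.49 ± 0.26 (adjusted p = 0.00086); the mutator arrays lay 1.05 ± 0.24 above them, with an adjusted p of 0.56. CLP minus young HSC was 0.35 for Pfkfb3 (95% interval -0.21 to 0.91). Pfkfb4 rose from 85.1, 69.8 and 74.8 in young HSC to 134, 145, 127 and 130 in CLP (0.70 ± 0.16, adjusted p = 0.0053), although mid-aged wild-type replicate 2 reached 135 and CLP minus mid-aged wild type was 0.46 ± 0.16 (adjusted p = 0.052).

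Of the aldolases, Aldoc, the brain-type isoform, was lower in CLP. It had an intensity of 285, 238 and 220 in young, 384, 300 and 375 in old, 149, 221 and 541 in mid-aged wild-type and 117, 204 and 245 in the mutator HSC, and 92.0 and 25.6 in Ly6D- and 34.3 and 26.4 in Ly6D+ CLP. Every CLP array lay below every HSC array, and 3 of the 4 were dim. The change was -2.24 ± 0.39 against young (adjusted p = 0.00082) and -2.33 ± 0.39 against mid-aged wild-type HSC (adjusted p = 0.00066). Aldoa, the main isoform, ranged from 599 to 2083 over all arrays and passed the threshold in no comparison with all arrays in the fit. CLP minus young HSC was -0.49 (95% interval -1.12 to 0.14). Without mid-aged wild-type replicate 3, mid-aged wild type minus young HSC was -0.93 (adjusted p = 0.039 in limma).

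In the lower part of the pathway, Ldhb, the lactate dehydrogenase subunit that favours conversion of lactate to pyruvate, had the smallest adjusted p of all members. It had an intensity of 1500, 1136 and 1222 in young, 1249, 1213 and 1114 in old, 1994, 1957 and 2434 in mid-aged wild-type and 1997, 1780 and 1741 in the mutator HSC. In Ly6D- CLP it was 277 and 577 and in Ly6D+ CLP 117 and 212. The CLP arrays lay far below the HSC arrays, and mid-aged wild-type replicate 3 was the highest of all. CLP were lower than young HSC by -2.26 ± 0.23 (4.80-fold; adjusted p = 1e-05), and the 4 probe sets of the gene gave -2.26 to -2.33. They were lower than mid-aged wild-type HSC by -2.99 ± 0.23 (7.92-fold; adjusted p = 7.7e-07), with -1.22 to -2.99 over the 4 probe sets. Ly6D+ CLP were lower than Ly6D- CLP by -1.26 ± 0.30 (adjusted p = 0.044; 0.20 without Ly6D+ replicate 1, 0.28 without Ly6D- replicate 2, the array with the high neutrophil genes, and above 0.05 under 7 of 9 other alternatives). Between young and mid-aged wild-type HSC the probe sets did not run together: the one used gave 0.72 ± 0.15 (adjusted p = 0.006) and the other 3 gave -1.11, -0.60 and -0.67.

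Ldha, the subunit that favours lactate formation and a known HIF target, did not pass the threshold in any comparison. Its intensity was 2307, 1867 and 1992 in young, 2468, 2284 and 2706 in old, 1168, 1769 and 1666 in mid-aged wild-type and 1293, 1445 and 1995 in the mutator HSC, and 1939, 1864, 1988 and 1597 in CLP. The CLP and young arrays overlapped, and CLP minus young HSC was -0.15 (95% interval -0.54 to 0.24).

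Pgk1, phosphoglycerate kinase, changed less. It had an intensity of 5895, 5307 and 4972 in young, 5395, 4622 and 4752 in old, 5490, 4980 and 4685 in mid-aged wild-type and 4145, 5647 and 5033 in the mutator HSC, against 3384, 3557, 3569 and 3935 in CLP. Every CLP array lay below every HSC array, and mid-aged wild-type replicate 3, with the Xist pattern of the CLP arrays, lay at 4685. The change was -0.57 ± 0.13 against young HSC (adjusted p = 0.0051), with -0.57 to -0.91 over its 3 probe sets. Against mid-aged wild-type HSC it was -0.48 ± 0.13 (adjusted p = 0.016), but the probe sets ran from -0.48 to 0.80 and their mean gave -0.02. Tpi1, triose phosphate isomerase, was 2163, 2101 and 2263 in young and 2413, 1623 and 1877 in old HSC. It was 1586, 1330 and 1480 in mid-aged wild-type and 1053, 1036 and 1455 in mutator HSC, and 1668, 1145, 1582 and 916 in CLP. CLP were lower than young HSC by -0.75 ± 0.21 (adjusted p = 0.016, 0.059 without young replicate 3 and 0.051 in the fit of these groups alone). This change was -0.55 without Ly6D+ replicate 2 and -0.61 without Ly6D- replicate 2. Mid-aged wild-type HSC were also lower than young HSC. That call was lost without any 1 young array (adjusted p = 0.091 to 0.12) and under quantile normalization (-0.31, adjusted p = 0.26).

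Pkm, the pyruvate kinase of most tissues, was 1232, 1261 and 1219 in young HSC and 1628, 1251 and 1222 in old HSC. It was 287, 760 and 641 for mid-aged wild-type and 551, 581 and 700 for mutator HSC, and 1101, 1135, 1100 and 689 in CLP. The arrays of 32-week mice were lower than all young and old arrays. Mid-aged wild-type HSC were lower than young HSC by -1.22 ± 0.29 (adjusted p = 0.011; 0.052 in a fit of these groups alone). CLP were higher than mid-aged wild-type HSC by 0.90 ± 0.27 (adjusted p = 0.024; 0.075 without mid-aged wild-type replicate 1). Pgam1, phosphoglycerate mutase, ranged from 240 to 961 with no call. Eno2, the neuronal enolase, lay at 33.6, 44.6 and 24.6 in old and 15.1, 20.8 and 21.5 in young HSC, all dim.

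**Figure D2:**
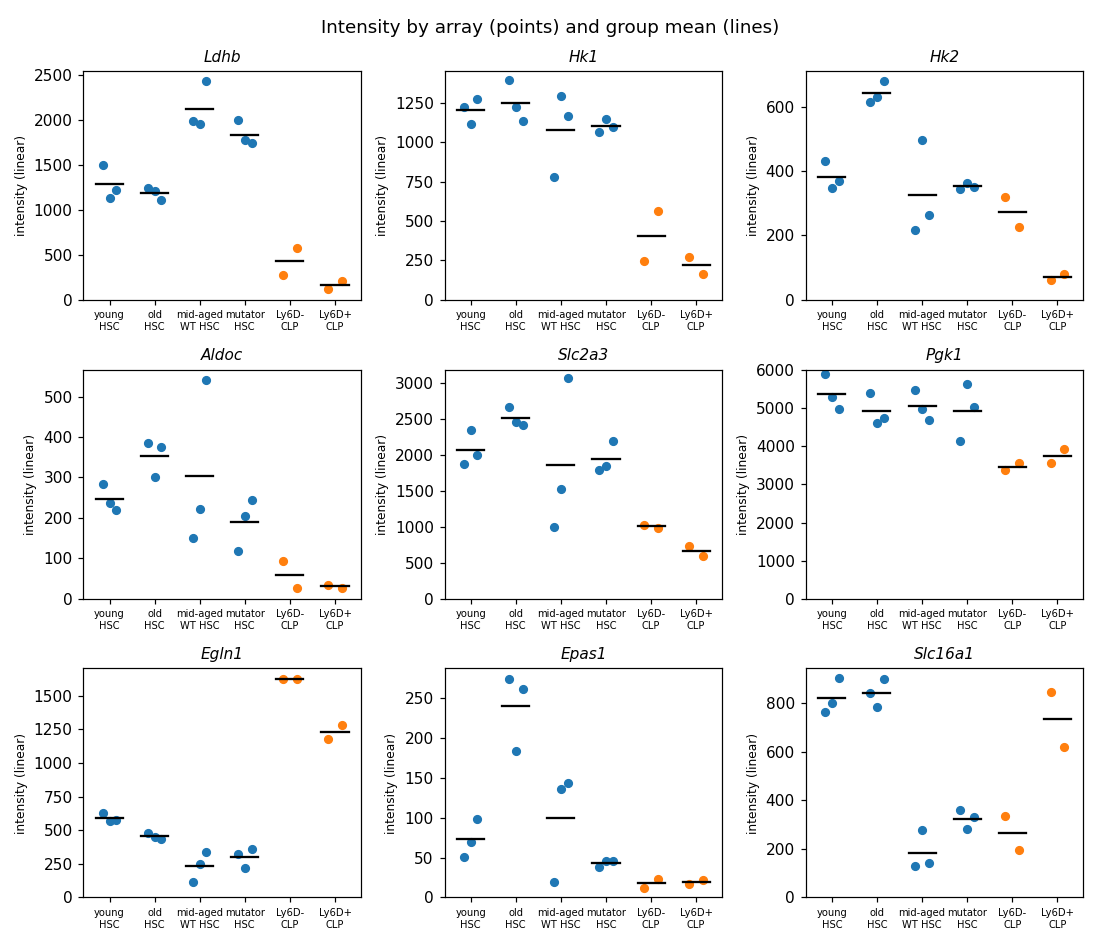
Each panel shows 1 gene, with linear intensity on the vertical axis starting at 0, points for arrays and a line at the group mean; HSC are blue and CLP orange. Ldhb, Hk1, Aldoc and Pgk1 are lower on every CLP array than on any HSC array, Egln1 is higher, and Slc16a1 is low in both groups of 32-week mice and in Ly6D- CLP.

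The pyruvate dehydrogenase kinases passed the threshold in no comparison with all arrays in the fit and the probe sets used. Pdk1, the isoform known as a HIF target, was 1303, 1279 and 1372 in young, 1365, 1409 and 1167 in old, 905, 1401 and 830 in mid-aged wild-type and 835, 1507 and 1278 in the mutator HSC, and 1343, 1299, 1573 and 1527 in CLP. The interval for CLP minus young HSC was -0.32 to 0.56 and that for old minus young HSC -0.53 to 0.51. Its other 3 probe sets gave 0.80, 1.71 and -0.71 for CLP minus young HSC, so that the direction there depends on the probe set. For CLP minus mid-aged wild-type HSC the 4 probe sets of Pdk1 gave 0.10 to 1.54. In limma, this change passed only under alternatives: 0.77 (adjusted p = 0.0086) with the mean of all probe sets and 0.71 (adjusted p = 0.017) without mid-aged wild-type replicate 2. Pdk3 was 589, 498 and 509 in young and 596, 515 and 509 in old HSC and 348, 386, 385 and 23.2 in CLP, where Ly6D+ replicate 2 alone lay near background. Without Ly6D+ replicate 1, which leaves that low array alone in its group, CLP minus young HSC was -2.16. Pdk3 was 195, 409 and 276 in mid-aged wild-type and 79.0, 267 and 388 in mutator HSC, all below the young and old arrays. Pdk2 (18.1 to 47.8) and Pdk4 (7.76 to 39.9) were dim on all arrays.

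Among the hypoxia regulators, Egln1, the main prolyl hydroxylase acting on HIF alpha subunits, was higher in CLP. It had an intensity of 632, 571 and 579 in young, 481, 452 and 435 in old, 118, 247 and 340 in mid-aged wild-type and 323, 222 and 357 in the mutator HSC. In Ly6D- CLP it was 1628 and 1623 and in Ly6D+ CLP 1178 and 1285. The CLP arrays lay above every HSC array, with mid-aged wild-type replicate 3 at 340. The change was 1.23 ± 0.26 against young HSC (2.35-fold; adjusted p = 0.0029) and 2.62 ± 0.26 against mid-aged wild-type HSC (adjusted p = 8.1e-06), and the dimmer second probe set gave 1.32 ± 0.15 against young HSC. Mid-aged wild-type HSC were lower than young HSC by -1.39 ± 0.30 (adjusted p = 0.0066), where the second probe set gave -0.25. Old HSC lay below young HSC on every array, by -0.37 (95% interval -1.02 to 0.28; adjusted p = 1.0).

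Epas1, HIF-2 alpha, was lower in CLP and varied widely among HSC. Its intensity was 50.4, 69.3 and 98.9 in young, 274, 184 and 262 in old, 19.3, 137 and 144 in mid-aged wild-type and 38.1, 46.4 and 46.1 in the mutator HSC. It was 12.4 and 23.6 in Ly6D- and 17.3 and 21.7 in Ly6D+ CLP, near background. The old arrays lay above all others. CLP minus young HSC was -1.33 ± 0.42 (adjusted p = 0.028), which ranged from -1.52 to -1.13 without 1 array and was not past the threshold without young replicate 2 or 3 or without replicate 1 of either CLP group. With a pseudocount of 64, CLP minus young HSC was -0.71 (adjusted p = 0.063 in limma). CLP minus mid-aged wild-type HSC was -1.46 ± 0.42 (adjusted p = 0.019, and 0.14 in the fit of these groups alone). This call was also lost without mid-aged wild-type replicate 2 (adjusted p = 0.082) or 3 (0.094), while replicate 1, at 19.3, lay within the CLP range. The change from young to old HSC was 1.54 ± 0.47 (95% interval 0.51 to 2.58), with an adjusted p of 0.20 in the fit of 12 HSC arrays and 0.0069 in a fit of the young and old arrays alone.

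Hif1a itself was 1447, 1189 and 1506 in young, 1824, 1727 and 1550 in old, 598, 1063 and 533 in mid-aged wild-type and 525, 853 and 1127 in the mutator HSC, and 976, 850, 458 and 1209 in CLP. Mid-aged wild-type HSC were lower than young HSC by -0.96 ± 0.29 (adjusted p = 0.033), a call lost without any 1 young array, without mid-aged wild-type replicate 1 or 3 (adjusted p = 0.057 to 0.11 over these) and in the fit of these groups alone. CLP minus young HSC was -0.73 (95% interval -1.43 to -0.02, adjusted p = 0.11 in limma). With the mean of all probe sets it was -0.67 (adjusted p = 0.028), and without Ly6D+ replicate 2 it was -1.07. Arnt ranged from 156 to 551, Egln3 from 45.7 to 359, Vegfa, the angiogenic growth factor, from 27.1 to 61.8, and Vhl from 120 to 283. None of the 4 passed in any comparison with all arrays in the fit. Without Ly6D+ replicate 1, CLP minus young HSC was 0.90 for Egln3.

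**Figure D3:**
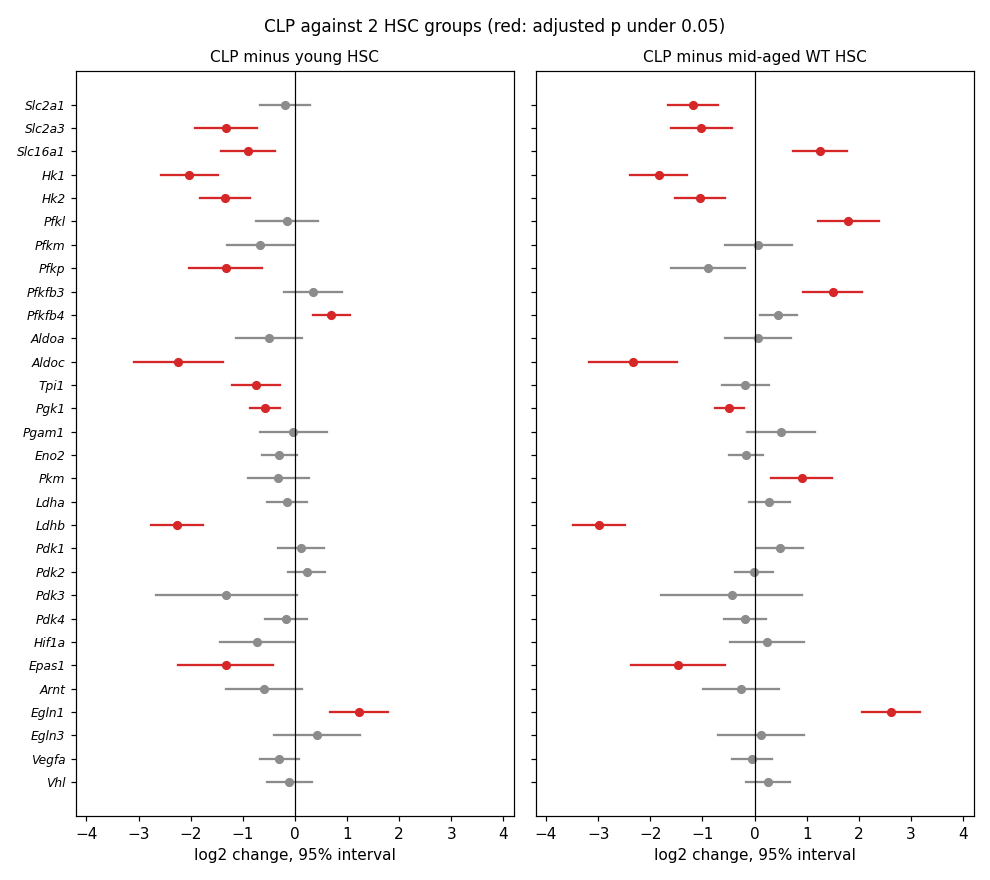
Log2 change of each of the 30 tested genes from young HSC (left) and from mid-aged wild-type HSC (right) to CLP, with its 95% interval; red marks an adjusted p under 0.05. Hk1, Hk2, Aldoc, Pgk1, Ldhb, Slc2a3 and Epas1 lie left of 0 and Egln1 right of 0 in both panels, while Slc16a1 changes side.

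The 10 calls between young and mid-aged wild-type HSC stand beside the difference in RNA quality given above. The actin ratio was 2.39 to 2.61 in young and 4.24 to 5.26 in mid-aged wild-type HSC. The 13 calls between CLP and mid-aged wild-type HSC stand beside a similar difference, with 2.11 to 3.85 on CLP arrays. Its part in either set of calls was not tested. All 5 members higher in CLP than in mid-aged wild-type HSC were also lower in mid-aged wild-type than in young HSC. For CLP minus mid-aged wild type, probe sets ran from -0.92 to 0.85 for Aldoa, -0.29 to 1.80 for Pfkl and -0.48 to 0.80 for Pgk1. Probe sets of 1 gene could be compared for the 11 members with more than 1 probe set of a mean intensity over 50. For mid-aged wild type minus young they gave -2.04 to 0.67 for Pfkl, -1.60 to 0.60 for Aldoa, -1.66 to 1.61 for Pdk1, -1.92 and -0.19 for Hk1, and -1.71 to -0.09 for Pgk1. Those of Hif1a (-0.96 and -0.92) and Slc2a3 (-0.30 and -0.04) lay closer together. In old minus young HSC the same probe sets gave -0.10 to 0.14 for Pfkl, -0.07 to 0.29 for Aldoa, -0.06 to 0.03 for Pdk1, 0.05 and 0.42 for Hk1, -0.22 to -0.13 for Pgk1, 0.30 and 0.01 for Hif1a, and 0.28 and 0.25 for Slc2a3. The width of the range within a gene was thus at most 0.37 in old minus young and up to 3.27 in mid-aged wild type minus young, and it was wider in the latter for 10 of the 11 genes, Hif1a being the exception.

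**Figure D4:**
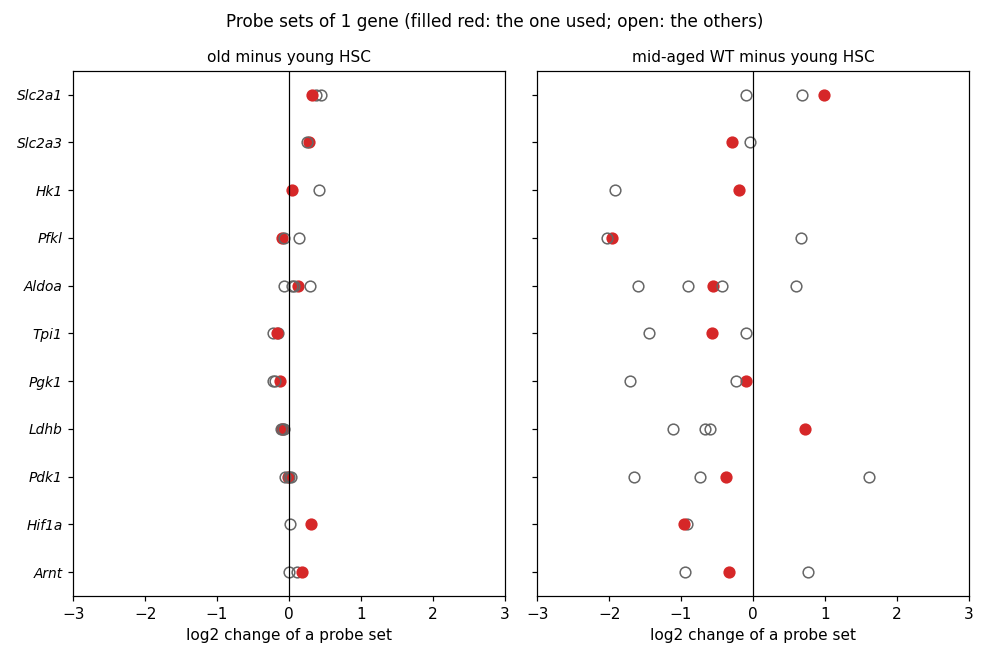
Log2 change of each probe set with a mean intensity over 50, for genes with more than 1 such probe set, in old minus young HSC (left) and mid-aged wild-type minus young HSC (right); filled red points are the probe sets used. Points of 1 gene span at most 0.37 on the left; on the right they span more for 10 of the 11 genes, all but Hif1a, and Ldhb, Pfkl, Aldoa, Pdk1, Arnt and Slc2a1 have points on both sides of 0.

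The comparison of old with young HSC asks whether these genes follow age. None of the 30 members passed the threshold, the smallest adjusted p being 0.20 for Epas1. The change was positive for 22 members and the median was 0.13, against -0.01 for all genes tested. The arrays of the groups did not overlap for 11 of 30 members, compared with 27.2% of all genes. In a fit of the young and old arrays alone, Hk2 and Epas1 were higher in old HSC, where 7.37% of all genes passed. Several marker lists also separated these arrays. The mean log2 level of 9 proliferation genes was 9.00 to 9.63 on old and 9.91 to 10.6 on young arrays, with 1 of 9 tested called lower. It was 5.12 to 5.25 and 5.55 to 6.08 for 8 macrophage genes (1 of 7 tested lower), and 5.27 to 5.60 and 5.83 to 6.24 for 6 erythroid genes (0 of 5 called). In the other direction, it was 8.15 to 8.69 on old and 7.86 to 7.95 on young arrays for 6 megakaryocyte genes (0 of 6 called) and 10.9 to 11.1 and 10.7 to 10.8 for 9 HSC markers (2 of 9 higher). The 10 neutrophil genes overlapped, at 5.13 to 6.83 and 6.60 to 8.27 (0 of 9 called). The part of any of these in the values of the members was not tested.

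The comparison of mutator with mid-aged wild-type HSC asks whether they follow the mitochondrial defect, and here too none of the 30 members passed. The changes ran from -0.68 for Epas1 to 1.05 for Pfkfb3, 14 were positive, and the median was -0.04. The arrays did not overlap for 4 members, Pfkfb3, Slc16a1 and Pdk4 (mutator higher) and Slc2a1 (mutator lower), compared with 6.07% of all genes. Slc16a1, at 0.85 ± 0.23 (adjusted p = 0.56), had a change of 1.16 (adjusted p = 0.013) without mid-aged wild-type replicate 2, where 1.65% of all genes passed in place of 0.0%. Without replicate 3, the array with the discordant Xist level, 0 members passed.

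The difference between the mutator change and the age change was tested as 1 contrast, and 0 of 30 members passed (4 at an unadjusted p under 0.05), with 0.512% of all genes called. Epas1 had the largest difference, -2.22 ± 0.67 (adjusted p = 0.29), with the highest arrays in old HSC and low ones in mutator HSC. Without mid-aged wild-type replicate 1 it was -2.94 (adjusted p = 0.0021), with 1.10% of all genes called, and without replicate 2 that of Slc16a1 was 1.13 (adjusted p = 0.034), with 1.01% called.

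**Figure D5:**
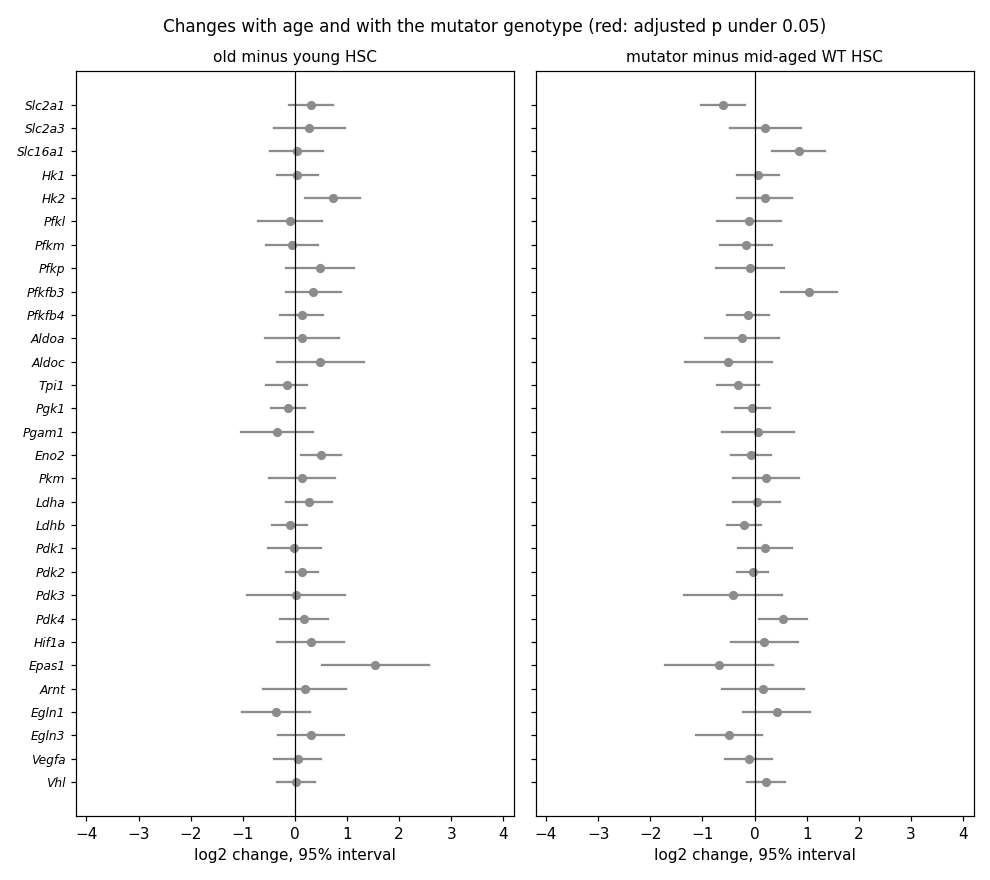
Log2 change of each of the 30 tested genes in old minus young HSC (left) and mutator minus mid-aged wild-type HSC (right), with its 95% interval, on the axis range used for CLP. No point is red; Epas1 and Hk2 lie furthest right on the left and Pfkfb3 and Slc16a1 furthest right on the right.

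Other genes of the same pathways were counted from lists. Of 26 tested further hypoxia targets, 11 were lower and 2 higher in CLP than in young HSC, led by Bnip3, a mitophagy receptor (-1.62 ± 0.25, adjusted p = 0.00033), Ak4, a mitochondrial adenylate kinase (-2.21 ± 0.38, adjusted p = 0.00065), Ndrg1 (-1.27 ± 0.32, adjusted p = 0.0083) and, upwards, the transferrin receptor Tfrc (1.51 ± 0.30, adjusted p = 0.0022). Over all genes tested, 18.2% were lower and 12.5% higher in CLP than in young HSC, which are also the shares for the lists that follow. Against mid-aged wild-type HSC 8 of the 26 targets were lower and 2 higher, with 12.2% of all genes lower and 15.8% higher. Of 13 further genes of the HIF pathway, 3 were lower and 1 higher in CLP than in young HSC. On the log2 scale, Meis1, a homeobox factor of HSC known to act on Hif1a, fell by 2.32. Cited2, which competes with HIF for the coactivator p300, fell by 1.88, and Elob rose by 1.65. The Elob intensity was 571, 474 and 493 in young HSC and 1821, 1370, 2098 and 1360 in CLP, but 2764, 2299 and 2382 in mid-aged wild-type HSC. Of 16 further glycolysis genes, 4 were lower and 0 higher than in young HSC, among them Bpgm (-1.80 ± 0.29) and Galm (-2.39 ± 0.40). Of 7 pentose phosphate genes, Pgls was higher (2.62 ± 0.21) and Rpe (-1.59 ± 0.23) and Tkt (-0.37 ± 0.11) were lower. Of 9 genes of the pyruvate dehydrogenase complex, its phosphatase Pdp1 was lower (-1.24 ± 0.27). Against mid-aged wild-type HSC, 4 of the 13 HIF pathway genes were lower and 1 higher, and 6 of the 16 glycolysis genes were lower and 0 higher. In that comparison 0 of the 7 pentose phosphate genes were lower and 1 higher. The 9 genes of the pyruvate dehydrogenase complex also had 0 lower and 1 higher there.

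In old against young HSC, 2 of the 26 further targets passed the threshold in opposite directions, with 1.31% of all genes called. Cxcr4, a chemokine receptor that retains HSC in the marrow, had an intensity of 198, 167 and 159 in young and 2057, 2043 and 1653 in old HSC (3.34 ± 0.40, adjusted p = 0.0013). Ak4 fell from 295, 309 and 259 to 162, 121 and 108 (-1.06 ± 0.21, adjusted p = 0.03). Cxcr4 was also the 1 gene of these lists in which the mutator change differed from the age change (-3.01 ± 0.56, adjusted p = 0.041). Its intensity was 1736, 769 and 869 in mid-aged wild-type HSC and 2594, 1184 and 757 in mutator HSC. Both groups thus lay above all young arrays and overlapped each other. The negative difference therefore does not mean that Cxcr4 was low in mutator HSC. In mutator against mid-aged wild-type HSC, 0 genes of the 5 further lists passed, with 0.0% of all genes called.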

How the data were processed

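Biotinylated cRNA from sorted cells was hybridised to 16 arrays. The deposited values are probe set intensities on a linear scale, with their background correction, summary method and normalization not given in the sources used here. Arrays have no read depth, and their number limits the precision. No further normalization was applied before the log2(intensity + 16) step. Single gene symbols belong to 34958 probe sets, and each gene was represented by the brightest. Genes entered a test when above the 40th percentile of the array on at least 3 of 12 HSC arrays (13482 genes) or 2 of 16 arrays (14344 genes, comparisons with CLP). Group means came from lmFit and eBayes of limma 3.58.1 (R 4.3.3), and p-values were adjusted by Benjamini-Hochberg over all genes tested. The residual variance of a gene was shared by all groups in a fit. Standard errors and intervals for old against young HSC therefore also carry the wider spread of the mid-aged wild-type arrays. Those for the CLP groups carry the spread of the HSC arrays. The scripts were tested on simulated data. All members are described; of the further lists, up to 4 genes a list past the threshold are named. Members, lists and tests were chosen with earlier results of these data known. The alternatives were quantile normalization, median centring, other filters and pseudocounts (1 and 64), the mean of all probe sets, a replicate block, the compared groups alone and leaving out each array; joining young replicates 2 and 3, the most alike pair, was added after seeing the data. Same-numbered arrays did not deviate together in every pair (correlations of deviations, old with young: 0.50, 0.42 and -0.01), so numbers were not taken as pairs.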

Additional observations from a re-analysis of the deposited data

Results flagged for a closer look

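The arrays separated in opposite directions for Slc2a1 in the 2 main HSC comparisons: all old arrays lay above all young arrays (0.32 ± 0.19) and all mutator arrays below all mid-aged wild-type arrays (-0.60 ± 0.19). The difference between the changes was -0.92 ± 0.27 on the log2 scale, with an adjusted p of 0.29 in limma, so it did not pass the threshold. The lowest old and the highest young array were 384 and 382.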

How the results depend on the processing

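The number of members called changed by more than 1.5 times under few alternatives. With the compared groups fitted alone it was 2 in place of 0 for old against young HSC, 6 in place of 10 for mid-aged wild-type against young HSC, 7 in place of 13 for CLP against mid-aged wild-type HSC and 0 in place of 3 for Ly6D+ against Ly6D- CLP. For Ly6D+ against Ly6D- CLP it was also 1 with the mean of all probe sets and 1 with the replicate block. The replicate block gave 0, 0, 0, 9, 12 and 13 calls for old against young, mutator against mid-aged wild type, the difference of these changes, mid-aged wild type against young, and CLP against young and against mid-aged wild-type HSC. Leaving out 1 array gave 0 calls for old against young HSC, 0 to 1 for mutator against mid-aged wild-type HSC, 0 to 1 for the difference, 7 to 10 for mid-aged wild type against young, 9 to 13 for CLP against young, 12 to 14 for CLP against mid-aged wild type and 1 to 4 for Ly6D+ against Ly6D- CLP. The sign of 1 called gene turned: Ldhb in mid-aged wild type against young HSC was -0.41 (adjusted p = 0.25) with the mean of all probe sets, whose other members gave negative changes. Of the calls, 8 of 12 in CLP against young, 7 of 13 in CLP against mid-aged wild type, 5 of 10 in mid-aged wild type against young HSC and 0 of 3 in Ly6D+ against Ly6D- CLP held in every fit. Median centring moved the median of all genes in mid-aged wild type against young HSC from -0.04 to -0.12, and quantile normalization changed the split of all calls there from 866 higher and 2392 lower to 1261 and 1801. Probe sets near background limit what can be said of Pdk2, Pdk4, Eno2 and Slc16a3.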
